A study of Mus musculus with 18 samples.

Results

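The comparison described here set 9 RNA-seq libraries of mouse splenocytes, all 3 labelled LPPC/mp and all 6 labelled LPPC/mp/CD28, against 5 libraries with few T-cell transcripts, 14 of the 18 libraries of the series in all. The 5 were the Naive and LPPC/mp/CD152 libraries with Cd3e, a T-cell receptor subunit, under 40 FPKM (fragments per kilobase of transcript, scaled to the size of the library): LPPC/mp/CD152 1, 3, 4 and 6 and Naive 3. Per the labels, all were female C57BL/6J mice of 4 to 6 weeks. LPPC is a liposome of lipid, polyethylene glycol and polyethylenimine, and mp stands for the membrane proteins, taken from antigen-loaded dendritic cells, that it carries. Per the study's methods the LPPC/mp mice received that complex 2 times. After the same course of LPPC/mp, the LPPC/mp/CD28 mice were given the complex with an antibody to CD28, a costimulatory receptor of T cells, and the LPPC/mp/CD152 mice with an antibody to CD152 (CTLA4), an inhibitory receptor, 1 or 2 times, which the labels do not tell apart. The Naive mice were untreated. The 13 libraries other than Naive 3 thus share the LPPC/mp course, the 5 mix 2 treatments, and the choice of libraries by Cd3e and the treatment cannot be told apart in the main comparison. No source used here says that the libraries came from separate animals, and the p-values measure the spread between libraries.

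The 5 were chosen by their Cd3e values, so Cd3e and the other lymphocyte markers are described without a test. They stayed in the fit, so counts over all genes include them. Cd3e was 6.93 to 15.6 FPKM in the 9 libraries and 0.843 to 5.58 in the 5. The highest value under the limit was 5.58 FPKM in LPPC/mp/CD152 6, and the lowest above it was 55.5 FPKM in LPPC/mp/CD152 2, so no library lay near 40. The 4 libraries left out, Naive 1 and 2 and LPPC/mp/CD152 2 and 5, are called the high-Cd3e libraries. The aligned sequence per library, from the ratio of coverage to FPKM, was 5.99 to 7.59 gigabases in the 9 and 6.24 to 7.92 in the 5.

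All 14 libraries went against the labelled sex. The Y-linked Eif2s3y was at 31.0 to 36.8 FPKM in the 9 libraries and 36.5 to 43.0 in the 5, but at 0 in the 4 high-Cd3e libraries. Xist, the RNA that coats the inactive X chromosome of female cells, was at 4.84 to 7.20 FPKM in the 9 and 0.286 to 2.69 in the 5, against 48.1 to 59.9 in the high-Cd3e libraries. Every result below rests on these libraries, none can be given without them, and what part the source of this RNA has in the differences was not tested. The protocol text attached to the labels describes melanoma tumours, not spleen. Of 6 melanocyte genes Tyr and Dct, enzymes of pigment synthesis, were at 0 in all 14 libraries, and Mlana, Pmel and Tyrp1 were at most 0.370 FPKM in them. The transcription factor Mitf, which macrophages express as well, was at 10.1 to 15.5 FPKM in the 9, 15.2 to 20.1 in the 5 and 0.227 to 0.850 in the high-Cd3e libraries, so the summed list was 10.5 to 15.7, 15.4 to 20.2 and 1.30 to 2.20 FPKM in these sets.

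Macrophages are phagocytes that sense microbial products through toll-like receptors, answer with cytokines, chemokines and lipid mediators, and then raise inhibitors of the same pathways. In the spleen they clear old red cells and particles from the blood. The 4 genes that mark the libraries were Lyz2 (lysozyme 2), Spp1 (osteopontin, a secreted adhesion protein), Itgam (the integrin subunit CD11b) and Itga4 (the integrin subunit CD49d). Over a list of 12 macrophage markers the summed FPKM was 8641 to 9669 in the 9 libraries and 4677 to 5250 in the 5, against 476 to 541 FPKM in the high-Cd3e libraries. Spp1 alone set this order: over the other 11 markers the sum was 2463 to 2702 FPKM in the 9 and 3786 to 4307 in the 5, against 476 to 541 in the high-Cd3e libraries. In these sums both sets thus lay well above the high-Cd3e libraries. Single markers could go the other way: Itga4 was at 25.6 to 28.3 FPKM in the 9 against 55.2 to 61.9 in the high-Cd3e libraries. The separate list of red pulp and marginal zone macrophage genes, given below, was lower in both sets than there.

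Spp1 was at 6178 at the lowest, 6463 at the median and 6966 FPKM at the highest in the 9 libraries. It was at 889, 891, 856, 831 and 943 FPKM in the 5 (LPPC/mp/CD152 1, 3, 4 and 6 and Naive 3). The sets did not overlap, each was tight, and the limma difference on the log2(FPKM + 0.5) scale was 2.89 ± 0.04 (SE), adjusted p = 2.7e-17. Itgam was at 90.1 at the lowest, 98.99 at the median and 103 FPKM at the highest in the 9 libraries, and at 22.5, 21.99, 22.6, 22.2 and 24.1 FPKM in the 5. It was higher in every one of the 9, with a difference of 2.08 ± 0.03 (SE), adjusted p = 2.5e-16. Itga4 was at 25.6 at the lowest, 26.7 at the median and 28.3 FPKM at the highest in the 9 libraries, and at 233, 219.8, 226, 215 and 247 FPKM in the 5. Here the 9 libraries lay far below all of the 5, with a difference of -3.08 ± 0.03 (SE), adjusted p = 1.4e-18. Lyz2 was lower with a smaller difference, at 1386 to 1491 against 2589 to 2888 FPKM and -0.91 ± 0.03 (SE), adjusted p = 8.6e-13. Reads of Lyz2 and its near-identical copy Lyz1 may have been split between them, so both are uncertain, and Lyz1 (237 to 269 against 871 to 1026 FPKM) was lower as well. Of the other macrophage markers, Cd68 and Adgre1 (F4/80) were a little higher (0.45 and 0.48), Csf1r, the receptor for the macrophage growth factor, was lower (-1.34), and Lgals3 did not pass the test (adjusted p = 0.95 by limma).

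**Figure D1:**
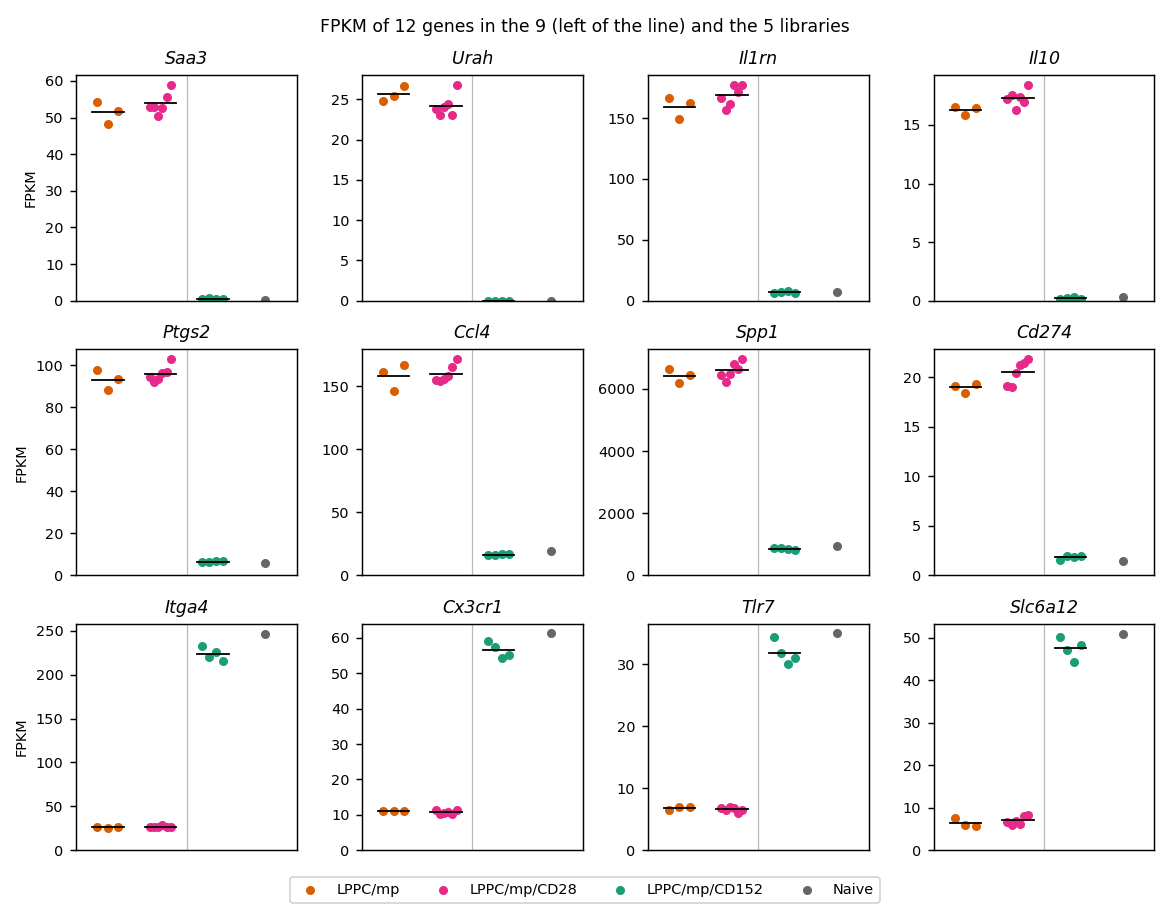
FPKM of 12 genes in each library, with 1 dot per library, the group in colour and the group mean as a bar; the 9 LPPC/mp and LPPC/mp/CD28 libraries stand left of the line and the 5 low-Cd3e libraries right of it. For Saa3, Urah, Il1rn, Il10, Ptgs2, Ccl4, Spp1 and Cd274 every one of the 9 lies above the 5, and for Itga4, Cx3cr1, Tlr7 and Slc6a12 every one lies under them.

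Promoters of the 5 genes with the largest rise are shown, since these genes carry the largest differences between the sets. They are the 250 bases before the RefSeq start of each gene in GRCm38.p6, 5′ to 3′ on the gene's strand, in lower case, with capitals where 1 of 5 motifs was found on either strand. The motifs were AP-1 (TGANTCA), CRE (TGACGTCA), C/EBP-ATF (TGATGNAA) and, by name, NF-kB and ISRE, the interferon response element.
Saa3, chr7:46715677-46715926, minus strand: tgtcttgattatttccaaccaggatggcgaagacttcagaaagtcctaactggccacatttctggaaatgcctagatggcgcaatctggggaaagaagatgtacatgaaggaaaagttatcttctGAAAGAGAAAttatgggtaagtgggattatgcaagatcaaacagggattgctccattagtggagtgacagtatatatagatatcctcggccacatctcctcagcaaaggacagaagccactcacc
Urah, chr7:140834888-140835137, plus strand: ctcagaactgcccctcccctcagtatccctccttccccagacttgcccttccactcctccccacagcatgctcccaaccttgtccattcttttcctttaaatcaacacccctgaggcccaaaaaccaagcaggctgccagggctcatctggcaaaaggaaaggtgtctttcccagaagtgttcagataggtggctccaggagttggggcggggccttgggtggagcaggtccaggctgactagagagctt
Wfdc17, chr11:83703806-83704055, plus strand: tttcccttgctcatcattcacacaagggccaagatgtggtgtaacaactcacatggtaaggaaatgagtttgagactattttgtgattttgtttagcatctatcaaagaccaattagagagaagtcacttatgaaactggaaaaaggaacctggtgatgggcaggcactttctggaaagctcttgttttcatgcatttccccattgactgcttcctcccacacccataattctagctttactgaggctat
Lcn2, chr2:32387740-32387989, minus strand: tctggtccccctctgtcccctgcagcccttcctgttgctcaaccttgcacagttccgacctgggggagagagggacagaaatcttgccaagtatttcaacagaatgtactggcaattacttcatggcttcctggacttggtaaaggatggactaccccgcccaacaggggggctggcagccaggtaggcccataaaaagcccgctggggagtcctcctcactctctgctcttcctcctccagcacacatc
Ngp, chr9:110419558-110419807, plus strand: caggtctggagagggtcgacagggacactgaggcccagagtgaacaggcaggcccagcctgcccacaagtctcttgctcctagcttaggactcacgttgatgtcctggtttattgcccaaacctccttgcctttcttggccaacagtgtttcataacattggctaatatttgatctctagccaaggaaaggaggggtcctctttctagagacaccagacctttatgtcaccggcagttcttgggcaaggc
The only match was an ISRE motif in the Saa3 promoter, which is found in 3.0% of all 27025 promoters of this length. None of the 5 motifs was found in the other 4 windows.

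The difference reached most genes. Of 11068 protein-coding genes tested with limma, 8486 passed an adjusted p of 0.05 (76.7%), 3297 higher (29.8%) and 5189 lower (46.9%) in the 9 libraries. Since the median gene was lower by 0.10 on the log2 scale, scaling by the median of ratios turned this split to 4203 higher and 4067 lower, and small differences depend on it. At least 2-fold higher were 644 genes (5.82%) and at least 2-fold lower 284 (2.57%). The 9 and the 5 libraries did not overlap for 2124 genes on the high side (19.2%) and 3812 on the low side (34.4%), among them 546 of the 644 and 275 of the 284. These counts include Cd3e and the lymphocyte markers, whose differences the choice by Cd3e bears on. The first principal component held 75.2% of the variance and separated the sets. When all 9 Naive and LPPC/mp/CD152 libraries served as the comparison, with no choice by Cd3e, 287 of the 644 and 82 of the 284 were still called 2-fold, and the log2 difference of 12 named genes changed sign, Lyz2, Lyz1, Slco4a1, Trem2, Lipa, Pkm, Spred1 and S100a4 among them.

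**Figure D2:**
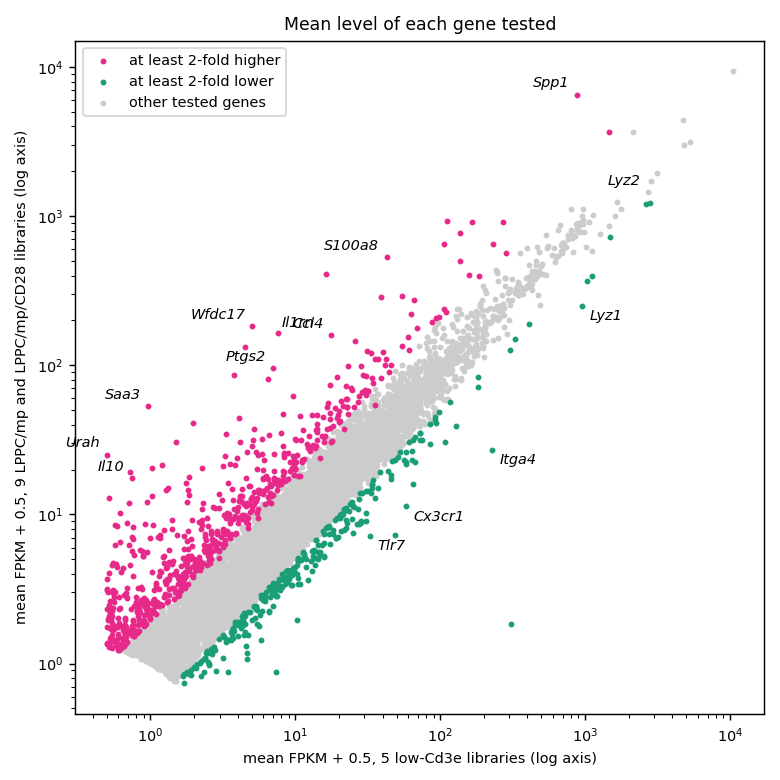
Mean FPKM plus 0.5 of each of the 11068 genes tested in the 9 LPPC/mp and LPPC/mp/CD28 libraries (vertical, log axis) against the 5 low-Cd3e libraries (horizontal, log axis). The 644 genes at least 2-fold higher and 284 at least 2-fold lower are coloured; Saa3 and Urah lie close to 0 in the 5 libraries, and the lone point at the lower right is Gm10260, whose 5 libraries overlap the 9.

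With the pseudocount of 0.5 the largest rise was in Saa3, an acute-phase serum amyloid A protein of macrophages (chr7:46711998-46715676 in the deposited values). Saa3 was at 48.3 at the lowest, 53 at the median and 58.8 FPKM at the highest in the 9 libraries. It was at 0.369, 0.733, 0.347, 0.602 and 0.277 FPKM in the 5. No library of the 5 reached 1 FPKM, and the difference was 5.82 ± 0.09 (SE), adjusted p = 1.8e-16. Urah, a hydrolase of the urate breakdown pathway, was at 23.04 at the lowest, 24.4 at the median and 26.7 FPKM at the highest in the 9 libraries and was listed at 0 in 4 of the 5 libraries and at 0.0175 FPKM in LPPC/mp/CD152 6. Its log2 difference of 5.64 depends on the pseudocount: with 0.1 it was 7.90, above the 6.62 of Saa3. Wfdc17, a secreted WAP-domain protein, was at 169 at the lowest, 183 at the median and 194 FPKM at the highest in the 9 libraries, and at 4.23, 5.06, 4.64, 5.48 and 3.36 FPKM in the 5 (difference 5.19 ± 0.08 (SE), adjusted p = 1.1e-16). Timp1, an inhibitor of metalloproteinases, was at 7.08 to 9.07 against 0 to 0.172 FPKM (difference 3.85), and Lipg, an endothelial-type lipase, at 11.4 to 13.3 against 0 to 0.0401 FPKM (4.65). Of the 15 acute-phase and secreted mediators listed, 10 passed the filter on low values, several only through the 9 libraries, so the count of higher members is not given as a result. The same holds for a member of any list that is near 0 in the 5, and counts over lists cover the members that passed.

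Il10 and Il1rn, both of which restrain inflammation, were far higher. Il10, which restrains macrophage activation (chr1:131019845-131024974), was at 15.9 at the lowest, 16.98 at the median and 18.4 FPKM at the highest in the 9 libraries. It was at 0.188, 0.274, 0.295, 0.170 and 0.292 FPKM in the 5. The gap between the sets was wide and the difference was 4.55 ± 0.05 (SE), adjusted p = 3.4e-18. Il1rn, the secreted antagonist of the interleukin 1 receptor, was at 149 at the lowest, 167 at the median and 177 FPKM at the highest in the 9 libraries, and at 6.56, 7.28, 8.14, 6.19 and 7.33 FPKM in the 5. The sets did not overlap, with a difference of 4.45 ± 0.06 (SE), adjusted p = 1.8e-17. By contrast Il1b, which acts on the same receptor, overlapped between the sets (9.88 to 18.4 against 2.49 to 36.04 FPKM, -0.15, adjusted p = 0.77 by limma), and Tnf was higher by only 0.34. Csf3 (G-CSF, the neutrophil growth factor) was at 2.92 to 4.04 against 0 to 0.0315 FPKM and Il33 at 2.13 to 3.34 against 0 to 0.00948 FPKM, both close to 0 in the 5. The 2 subunits of interleukin 27, Ebi3 and Il27, were higher by 1.30 and 1.49. Il6 was low in both sets (0.396 to 1.46 against 0.0161 to 0.119 FPKM) and higher by 1.32, and Il18 by 0.60, while the receptor chain Il6ra was lower (-0.50). In the interleukin 6, 10 and 12 families 5 of 11 members tested were at least 2-fold higher and 0 lower (median 0.72), and in the interleukin 1 family 3 of 10 (median 0.36). Of all genes tested 5.82% were 2-fold higher. Il10, Il6 and Il33 passed the filter on low values only through the 9 and are counted, so these counts are a description.

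Chemokines for monocytes and T cells rose beside them. Ccl4, an attractant of monocytes and T cells, was at 146 at the lowest, 158 at the median and 171 FPKM at the highest in the 9 libraries, and at 15.98, 15.9, 17.2, 16.8 and 19.1 FPKM in the 5 (difference 3.19 ± 0.04 (SE), adjusted p = 5.2e-17). Its neighbour Ccl3 was at 599.5 at the lowest, 643 at the median and 696 FPKM at the highest in the 9 libraries, and at 105, 107, 99.5, 97.8 and 115 FPKM in the 5 (difference 2.62 ± 0.04 (SE), adjusted p = 2.1e-16). Both were expressed by both sets, and every library of the 9 was above every one of the 5. Ccl7 and Ccl9 were higher by 2.13 and 1.38, Cxcl2, a neutrophil attractant, by 1.65, and Ccl2 by 0.86. Cxcl10, induced by interferon, was lower (1.65 to 2.53 against 3.77 to 4.58 FPKM, -0.91). Most interferon-stimulated genes were not: of 18 tested 13 were called higher and 4 lower. Interferon-inducible GTPases were 10 higher and 2 lower of 14. The shares called over all genes tested were 29.8% higher and 46.9% lower. Of the CC chemokines tested 6 of 9 were at least 2-fold higher and of the CXC chemokines 3 of 6, and 0 were 2-fold lower. The shares over all genes tested were 5.82% and 2.57%. Ccl7, at 0.0755 to 0.308 FPKM in the 5, passed the filter on low values only through the 9 and is counted. On the receptor side, Cx3cr1, the fractalkine receptor of patrolling monocytes and resident macrophages, was at 10.2 at the lowest, 10.99 at the median and 11.4 FPKM at the highest in the 9 libraries, and at 59.2, 57.4, 54.3, 55.2 and 61.4 FPKM in the 5. Cx3cr1 was among the largest falls, with a difference of -2.35 ± 0.04 (SE), adjusted p = 1.6e-16. It was not typical of its list: of 9 chemokine receptors tested 8 were called higher and 1 lower (median 0.86). At least 2-fold higher were 3 and at least 2-fold lower 1, and Cxcr4 was higher by 1.95.

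Enzymes of lipid mediators moved in opposite directions. Ptgs2 (COX-2), the inducible cyclooxygenase that starts prostaglandin synthesis, was at 88.3 at the lowest, 94.2 at the median and 103 FPKM at the highest in the 9 libraries. It was at 6.46, 6.39, 6.78, 6.77 and 6.11 FPKM in the 5. The spread within each set was small beside the difference of 3.77 ± 0.03 (SE), adjusted p = 4.4e-19. Ptges, the prostaglandin E synthase downstream of it, was also higher (1.27 to 1.76 against 0.252 to 0.401 FPKM, 1.26). The constitutive Ptgs1 was lower (-0.66), as were Alox5, which starts leukotriene synthesis (3.35 to 4.62 against 12.8 to 14.3 FPKM, -1.59), Ltc4s, the leukotriene C4 synthase (-1.20), Hpgds, the prostaglandin D synthase (-0.92), and Hpgd, which breaks prostaglandins down (-1.29). Of the 13 listed enzymes tested, 2 were at least 2-fold higher and 3 lower, against 5.82% and 2.57% of all genes tested. Ptges, which passed the filter on low values only through the 9, is counted.

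Nos2, the inducible nitric oxide synthase, was at 19.6 at the lowest, 20.5 at the median and 21.9 FPKM at the highest in the 9 libraries, and at 2.80, 2.44, 2.40, 2.61 and 3.08 FPKM in the 5 (difference 2.74 ± 0.04 (SE), adjusted p = 3.5e-16). Irg1 (Acod1), which makes itaconate, was at 31.5 at the lowest, 33.9 at the median and 37.5 FPKM at the highest in the 9 libraries, and at 2.79, 2.97, 2.22, 3.20 and 2.86 FPKM in the 5 (difference 3.38 ± 0.06 (SE), adjusted p = 7.5e-16). Both separated the sets with no overlap. Odc1, the first enzyme of polyamine synthesis, and Gch1, which starts synthesis of the Nos2 cofactor, were higher by 1.06 and 0.77. All 8 tested members of that list passed the test on the high side, 4 of 8 at least 2-fold. Of all genes tested 29.8% and 5.82% did so.

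Several regulators of NF-kB were higher. Nfkbiz, an inducible nuclear IkB protein, was at 21.3 at the lowest, 24.8 at the median and 29.1 FPKM at the highest in the 9 libraries, and at 4.09, 3.61, 5.83, 4.38 and 2.89 FPKM in the 5 (difference 2.51 ± 0.11 (SE), adjusted p = 2.3e-11). Bcl3 (2.22), Tnfaip3 (A20, 2.18), Nfkbia (IkB alpha, 1.60) and Tnip1 (1.22) followed, each with no overlap. Nfkbib and Nfkbie were higher by only 0.34 and 0.29, and Nfkbid did not pass the test (0.009, adjusted p = 0.87 by limma). Of the subunits Rela did not pass the test (0.05, adjusted p = 0.32 by limma) and was called higher under 3 other scalings, where its difference was 0.10 to 0.16. In the list of NF-kB subunits and feedback inhibitors 15 of 17 members passed on the high side and 6 of 17 were at least 2-fold higher. Of all genes tested 29.8% and 5.82% did so. Socs3, the inhibitor of STAT3 signalling, was at 41.01 at the lowest, 43.2 at the median and 45.96 FPKM at the highest in the 9 libraries, and at 3.50, 3.77, 3.85, 4.70 and 2.13 FPKM in the 5 (difference 3.47 ± 0.11 (SE), adjusted p = 5.9e-13), while Stat3 itself was higher by 0.70.

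Among immediate-early factors Fosb (21.8 to 38.2 against 1.90 to 4.58 FPKM, 2.91), Atf3 (1.55), Jun (1.12) and Egr1 (1.12) were higher, and Fosl2 did not pass the test (adjusted p = 0.78 by limma). 7 of 15 AP-1 and EGR factors were at least 2-fold higher and 0 lower, against 5.82% and 2.57% of all genes tested. Of 15 MAP kinase phosphatases and stress regulators tested 11 were higher and 2 lower, 7 and 1 of them by at least 2-fold. The phosphatases Dusp5, Dusp4 and Dusp1 were higher by 2.08, 1.46 and 1.27 and the stress regulator Gadd45b by 1.85. The Ras pathway inhibitors Spred1 and Spred2 were lower (-1.25 and -0.73). Ddit3 (CHOP), a transcription factor of the integrated stress response, was at 56.9 at the lowest, 63.03 at the median and 66.2 FPKM at the highest in the 9 libraries, and at 6.49, 10.4, 10.7, 10.4 and 7.41 FPKM in the 5 (difference 2.74 ± 0.10 (SE), adjusted p = 2.5e-12). Ppp1r15a and Trib3, targets of that response, were higher by 1.71 and 1.57 and Atf4 by 0.69, against 0.46 for the chaperone Hspa5 (BiP), -0.60 for Xbp1 and no call for Calr. The list of 23 held 12 higher and 9 lower genes, 5 at least 2-fold higher. Of all genes tested 29.8% were called higher and 46.9% lower.

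Some toll-like receptors, the sensors at the head of these pathways, were lower. Tlr7, the endosomal receptor for single-stranded RNA, was at 5.97 at the lowest, 6.82 at the median and 7.05 FPKM at the highest in the 9 libraries, and at 34.4, 31.9, 30.1, 31.1 and 35.1 FPKM in the 5 (difference -2.20 ± 0.04 (SE), adjusted p = 2.8e-15). Tlr4, the receptor for lipopolysaccharide, was at 6.16 to 6.99 against 18.01 to 20.4 FPKM (-1.49 ± 0.04 (SE), adjusted p = 1.6e-14), Tlr2, the receptor for lipoproteins, at 11.8 to 12.9 against 33.3 to 37.3 FPKM (-1.47) and Tlr13, a sensor of bacterial ribosomal RNA, at 2.92 to 3.76 against 9.50 to 11.1 FPKM (-1.48). For none of the 4 did the sets overlap. The adaptors Tirap and Myd88 were lower by less (-0.91 and -0.54), Tlr1 did not pass the test (0.03, adjusted p = 0.73 by limma), and Ticam1 (TRIF) and Irak3, an inhibitor of the pathway, were higher (0.70 and 0.54). Of the 19 receptors and adaptors tested 11 passed on the low side and 4 on the high side, with 4 of 19 at least 2-fold lower, 0 at least 2-fold higher and a median of -0.37. Of all genes tested 46.9% passed on the low side and 2.57% were at least 2-fold lower, with a median of -0.10.

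**Figure D3:**
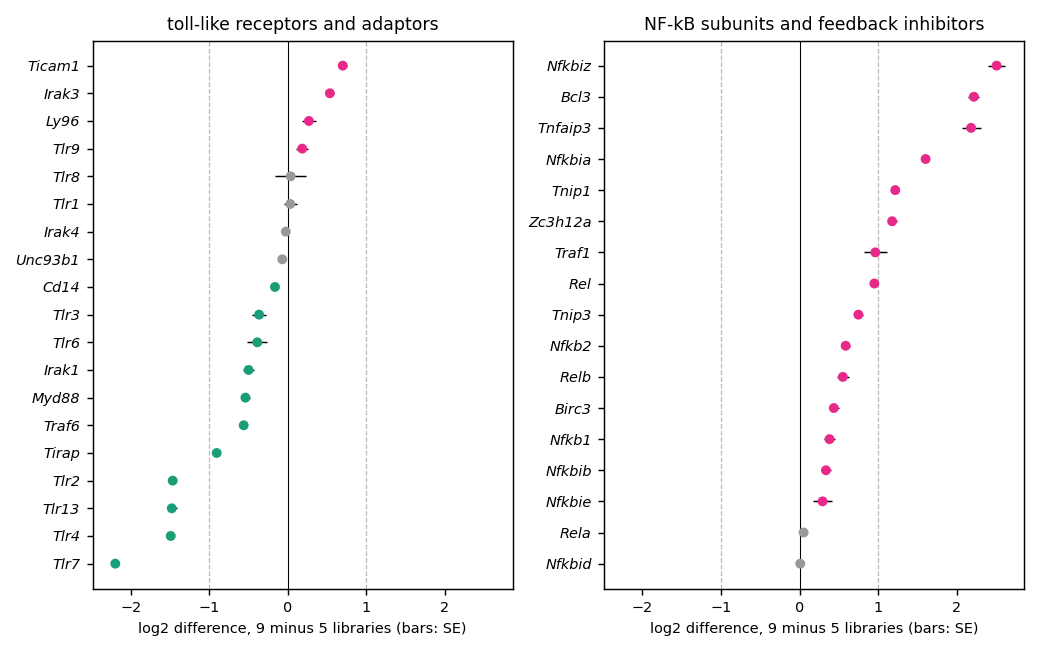
Log2 difference, 9 minus 5 libraries, of each tested member of the list of toll-like receptors and adaptors (left) and of NF-kB subunits and feedback inhibitors (right); bars are the SE, coloured dots passed an adjusted p of 0.05 and dashed lines mark 2-fold. Tlr7, Tlr4, Tlr13 and Tlr2 lie beyond 2-fold on the low side and Nfkbiz, Bcl3 and Tnfaip3 on the high side.

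Surface receptors changed in both directions. Beside Itgam and Itga4, Itga5, the fibronectin receptor subunit, was at 42.6 at the lowest, 45.9 at the median and 48.1 FPKM at the highest in the 9 libraries, and at 9.75, 10.2, 10, 10.3 and 11.3 FPKM in the 5 (difference 2.09 ± 0.04 (SE), adjusted p = 6.6e-16). Itgb2, the partner of Itgam, was higher (1.36), and Itgb1, the partner of both Itga4 and Itga5, did not pass the test (48.9 to 52.02 against 48.9 to 51.8 FPKM, adjusted p = 0.84 by limma). Of the integrins tested 7 of 12 were at least 2-fold higher and only Itga4 at least 2-fold lower. The scavenger receptors Cd36 and Msr1 were higher (1.98 and 1.86) and Trem2, a lipid receptor, was lower (-0.51). The Fc receptors Fcgr2b, Fcgr4 and Fcgr1 were higher by 1.46, 1.37 and 1.12, and 4 of 7 members of that list were at least 2-fold higher. Over all genes tested 5.82% were at least 2-fold higher and 2.57% lower.

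Cd274 (PD-L1), the ligand of the inhibitory T-cell receptor PD-1, was at 18.4 at the lowest, 19.3 at the median and 21.8 FPKM at the highest in the 9 libraries, and at 1.56, 1.98, 1.88, 1.95 and 1.48 FPKM in the 5. Every library of the 9 was above all of the 5, and the difference was 3.18 ± 0.06 (SE), adjusted p = 1.4e-15. Lgals9 (galectin 9) was higher by 1.46, while its receptor Havcr2 (TIM-3) was lower (-0.93). In the high-Cd3e libraries Cd274 was at 11.9 to 18.04 FPKM. Among complement genes, C3 and Cfb, which form the alternative pathway convertase, were higher (9.79 to 19.1 against 0.889 to 1.51 FPKM and 6.82 to 9.64 against 0.419 to 0.678 FPKM, differences 2.99 and 3.04), and the C3a receptor C3ar1 was higher (1.60). 7 of 15 complement genes were at least 2-fold higher, against 5.82% of all genes tested.

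Of 13 metallothionein and iron genes 11 passed on the high side, against 29.8% of all genes tested. Hmox1, the haem oxygenase, was at 264 at the lowest, 271 at the median and 284 FPKM at the highest in the 9 libraries, and at 62.5, 65.8, 66.5, 70.2 and 61.3 FPKM in the 5 (difference 2.06 ± 0.03 (SE), adjusted p = 1.1e-16), and the metallothionein Mt2 at 262 to 304 against 36.05 to 43.1 FPKM (2.87). The ferritin heavy chain Fth1 (1.34), the phagosomal metal transporter Slc11a1 (1.70) and the ferritin light chain Ftl1 (0.77) rose as well, and Tfrc, which takes up transferrin iron, did not pass the test (adjusted p = 0.059 by limma). The lysosomal proteases Ctsd and Ctsb were higher (1.49 and 1.09) and the acid lipase Lipa lower (-0.58), with a median of 0.12 over 18 hydrolases. Slc2a1, the glucose transporter GLUT1, and Pfkfb3, an activator of glycolysis, were higher (1.28 and 1.54), Pkm was lower (-0.40) and Ldha did not pass the test (-0.03, adjusted p = 0.49 by limma).

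Of the 22 cell cycle genes 19 passed on the low side, against 46.9% of all genes tested, with a median of -0.34 against -0.10. Only Ccne2 (4.85 to 5.74 against 11.7 to 13.3 FPKM, -1.19) was past 2-fold. Mki67 was at 65.3 to 72.3 against 87.8 to 99.5 FPKM and lower by 0.40 on the log2 scale, and Rrm2 did not pass the test (adjusted p = 0.76 by limma). All 13 transcripts of the mitochondrial genome passed on the low side, 4 of 13 at least 2-fold, with mt-Nd1 at 941 to 1832 against 2497 to 3094 FPKM (-1.22). The lists of heat shock chaperones, ribosomal proteins, cholesterol synthesis and NADPH oxidase subunits held 0 genes past 2-fold in either direction. Of the NADPH oxidase, Cybb, its catalytic subunit, was at 134 to 150.0 against 136 to 151.7 FPKM (adjusted p = 0.83 by limma) and Ncf1 was lower (-0.62).

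**Figure D4:**
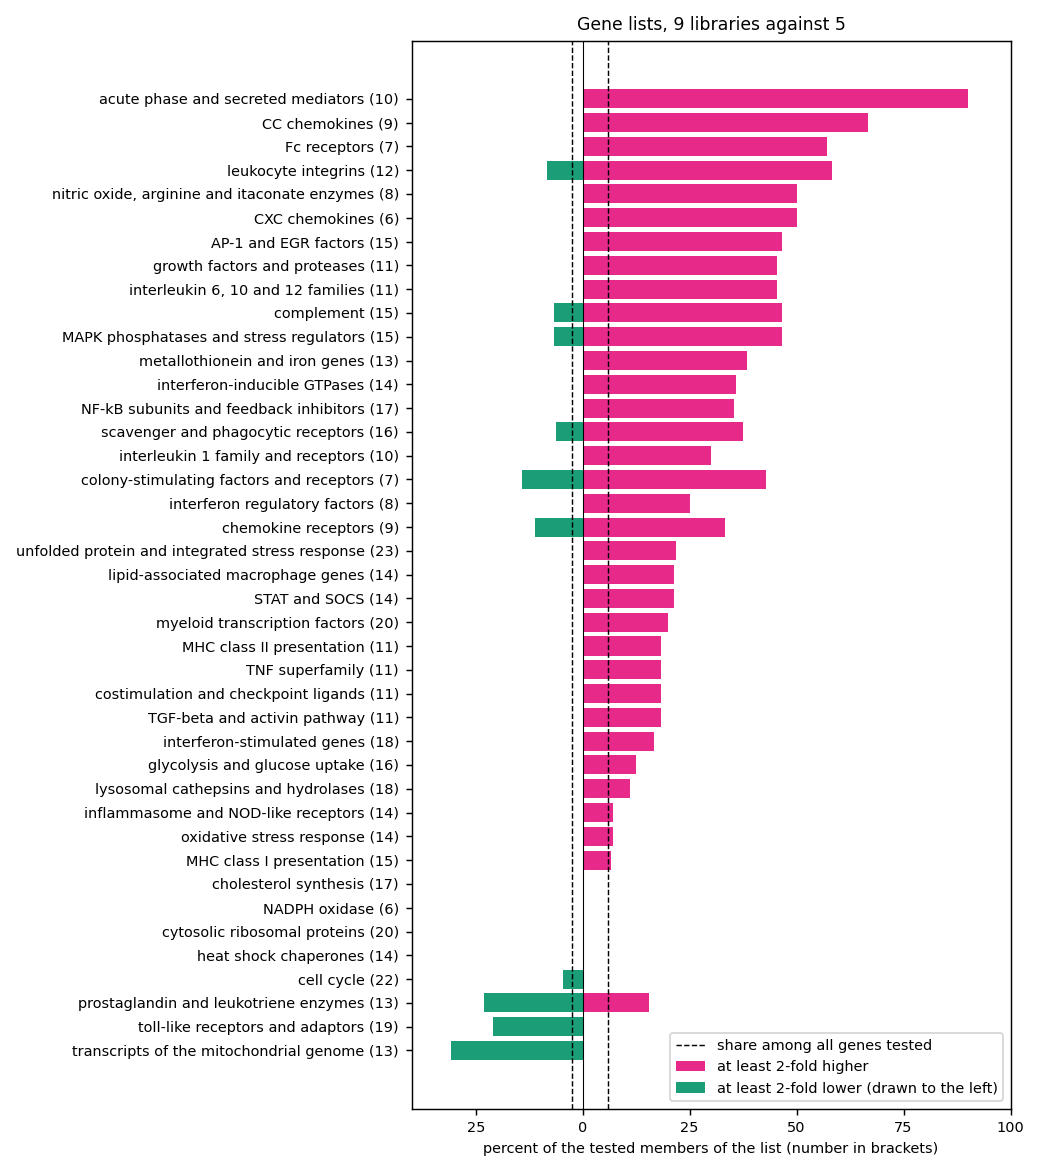
Percent of the tested members of each of 41 gene lists, members near 0 in the 5 included where the 9 brought them past the filter, that were at least 2-fold higher (right) or lower (left) in the 9 libraries against the 5, with the share among all genes tested as dashed lines at 5.82% and 2.57%. The bar of the secreted mediators, at the top, is not given as a result, since several members passed the filter only through the 9. CC chemokines stand next to it, and the mitochondrial transcripts and toll-like receptors at the bottom.

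Further falls were in transporters and receptors. Slc6a12, the betaine transporter BGT1, was at 5.68 at the lowest, 6.71 at the median and 8.41 FPKM at the highest in the 9 libraries, and at 50.1, 47.2, 44.4, 48.4 and 51.02 FPKM in the 5 (difference -2.75 ± 0.09 (SE), adjusted p = 4.7e-13). Htr1b, a serotonin receptor, was at 0.222 to 0.588 against 6.00 to 7.43 FPKM (-3.06), Lpar5, a receptor of lysophosphatidic acid, at 0.145 to 1.60 against 4.15 to 6.86 FPKM (-2.06), Kbtbd11 at 13.9 to 19.4 against 51.03 to 82.98 FPKM (-2.002) and the organic anion transporter Slco4a1 at 27.1 to 32.95 against 101 to 115 FPKM (-1.81). The olfactory receptor gene Olfr933 (-2.42) has close copies, so its value is uncertain. S100a4 and Ahnak, a calcium-binding protein and a large scaffold protein, were abundant and lower (-1.50 and -1.71). The proteases Adam8 and Mmp14 were higher (1.81 and 2.76). Of the lineage factors of macrophages Spi1 (PU.1) differed little (0.28), Cebpb was higher (0.69) and Cebpa lower (-0.67).

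Transcripts of other cell types also differed. In bulk samples, fewer cells of a type and less RNA per cell cannot be told apart. All 16 neutrophil precursor genes were at least 2-fold higher (median 3.61), against 5.82% of all genes tested. Their summed FPKM was 584 to 1141 in the 9 libraries and 4.78 to 59.9 in the 5, against 34.9 to 168 in the high-Cd3e libraries. Within the 5 this sum rose in the order of Cd3e, by which they were chosen, from 4.78 FPKM in Naive 3 to 59.9 in LPPC/mp/CD152 6. These calls are thus not independent of the choice, and members low in the 5, as Mpo, are counted. Mpo (myeloperoxidase) was at 20.2 at the lowest, 28.7 at the median and 38.9 FPKM at the highest in the 9 libraries, and at 0.517, 0.913, 1.31, 2.05 and 0.164 FPKM in the 5 (difference 4.48 ± 0.26 (SE), adjusted p = 5.2e-10). Elane and Prtn3, serine proteases of the same granules, were higher by 4.25 and 4.42, and Ngp, Ltf and Lcn2, proteins of later granules, by 5.02, 4.71 and 5.08. These genes varied far more among the 9 libraries than the macrophage markers, with a median SD on the log2 scale of 0.36 in the precursor list against 0.06 in the macrophage list. Of the 16 mature neutrophil genes 14 were at least 2-fold higher, among them S100a8 (349.7 to 722 against 6.32 to 70.2 FPKM, 3.96) and Retnlg (4.50). That list summed to 1237 to 2226 FPKM in the 9, 120 to 378 in the 5 and 426 to 531 in the high-Cd3e libraries. Naive 3, lowest in Cd3e, had the lowest sum (120, against 230 to 378 FPKM in LPPC/mp/CD152). This count, too, may not be independent of the choice. Of 7 basophil and mast cell genes 3 passed the filter on low values, through their levels in the 9, so their count is not given as a result. Mcpt8 was at 4.92 to 11.7 against 0 to 0.426 FPKM and Prss34 at 4.21 to 7.76 against 0 to 0.404 FPKM.

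The erythroid list held 9 of 10 at least 2-fold higher genes, against 5.82% of all genes tested. Its summed FPKM was 1370 to 7084 in the 9 libraries and 115 to 1186 in the 5, against 2521 to 84120 in the high-Cd3e libraries. Within the 5 this sum, too, rose in the order of Cd3e. The T-cell list summed in FPKM to 128 to 248 in the 9 libraries and 14.7 to 144 in the 5, against 745 to 1266 FPKM in the high-Cd3e libraries, and the B-cell list to 1359 to 2159 in the 9 libraries and 174 to 1111 in the 5, against 4510 to 6563. The B-cell sums of the 9 and the 5 did not overlap and the T-cell sums did, and both sets lay below the high-Cd3e libraries. The red pulp and marginal zone macrophage list held 7 of 12 genes at least 2-fold higher and summed to 340.5 to 383.9 FPKM in the 9 libraries and 69.8 to 135 in the 5, against 472 to 523 in the high-Cd3e libraries. The monocyte list held 5 of 9 such genes and 1 lower. Its sums overlapped, at 125.0 to 166 FPKM in the 9 and 74.2 to 153 in the 5, against 378 to 581 in the high-Cd3e libraries. In this list and the red pulp list Naive 3, lowest in Cd3e, had the lowest sum of the 5. Both counts may thus not be independent of the choice. The dendritic cell list summed to 91.6 to 107 FPKM in the 9 and 74.2 to 79.9 in the 5. NK cell transcripts, described without a test, ran the other way against the LPPC/mp/CD152 libraries, with sums of 10.3 to 16.9 FPKM in the 9, 17.4 to 36.5 in the 4 LPPC/mp/CD152 libraries and 2.90 in Naive 3. The NK sum was 140 to 211 FPKM in the high-Cd3e libraries. The plasma cell list summed to 265 to 371 FPKM in the 9 and 138 to 339 in the 5. The stroma and endothelium list summed to 4.18 to 75.7 FPKM in the 9 and 1.06 to 3.73 in the 5, and the platelet list to 2.78 to 46.3 FPKM in the 9 and 1.57 to 3.06 in the 5. The part of these cells in the differences above was not tested.

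**Figure D5:**
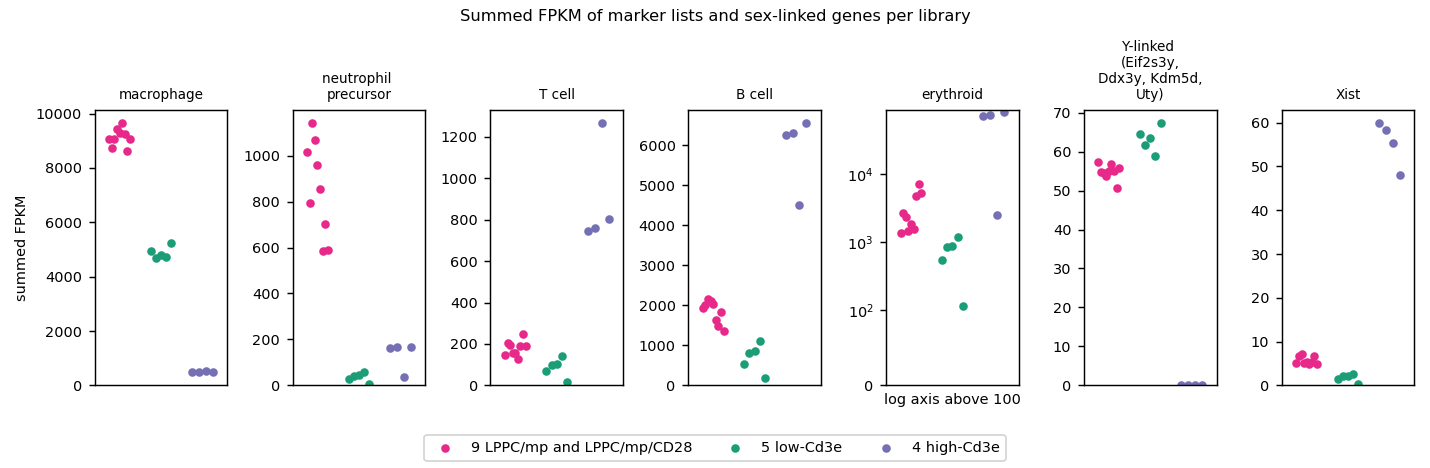
Summed FPKM of 5 marker lists, of 4 Y-linked genes and of Xist in each library (1 dot per library; the erythroid axis is logarithmic above 100), from left to right the 9 LPPC/mp and LPPC/mp/CD28 libraries, the 5 low-Cd3e and the 4 high-Cd3e libraries. The 9 and the 5 both show high macrophage sums and Y-linked transcripts; the 4 high-Cd3e libraries show macrophage sums of 476 to 541 and Y-linked sums of at most 0.00204 FPKM.

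The same genes were set beside the high-Cd3e libraries, as values with no test. Of the 644 genes at least 2-fold higher, 246 (38.2%) were higher in every one of the 9 than in all 9 other libraries, the high-Cd3e ones included. Among the named genes Saa3 was at 0.237 to 0.759 FPKM there, Urah was at 0, Il1rn was at 1.95 to 3.20 FPKM, Il10 at 0.356 to 0.501 FPKM, Ptgs2 at 0.856 to 3.94 FPKM, Nos2 at 0.0607 to 0.154 FPKM and Spp1 at 0.210 to 0.316 FPKM. Retnlg, also among the largest rises, overlapped instead, at 39.7 to 51.8 FPKM there and 24.7 to 56.2 in the 9. For 224 (34.8%) all 4 high-Cd3e libraries were above the 9, as for Klf2, a factor of resting lymphocytes (46.4 to 67.5 against 6.70 to 33.6 FPKM, and 101 to 165 FPKM in the high-Cd3e libraries), and Apoe (121 to 151.9 FPKM). Of the 284 genes at least 2-fold lower, 104 (36.6%) were lower in all of the 9 than in all 9 others, Itga4 (55.2 to 61.9 FPKM in the high-Cd3e libraries) and Tlr7 (9.79 to 17.6 FPKM) among them.

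Each treatment was also set against the low-Cd3e LPPC/mp/CD152 libraries alone, and these 2 comparisons share those 4 libraries. LPPC/mp/CD28 against the 4 low-Cd3e LPPC/mp/CD152 libraries gave 8084 called genes (73%), 489 at least 2-fold higher (4.42%) and 290 lower (2.62%). LPPC/mp against the same 4 gave 7589 (68.6%), 573 higher (5.18%) and 274 lower (2.48%). The log2 difference of Saa3 was 5.76 for LPPC/mp/CD28 and 5.70 for LPPC/mp, that of Il10 4.61 for LPPC/mp/CD28 and 4.52 for LPPC/mp, that of Ptgs2 3.76 for LPPC/mp/CD28 and 3.72 for LPPC/mp, and that of Itga4 -3.03 for LPPC/mp/CD28 and -3.07 for LPPC/mp.

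LPPC/mp/CD28 differed from LPPC/mp in 58 genes by limma (0.524%), 15 higher (0.136%) and 43 lower (0.389%), of which 18 were at least 2-fold lower (0.163%) and 0 at least 2-fold higher. At an unadjusted p under 0.05 there were 1222 (11%). The platelet chemokines Ppbp and Pf4 were lower in LPPC/mp/CD28, with Ppbp at 0.306 to 6.19 FPKM in LPPC/mp/CD28 and 15.7, 23.03 and 17.96 FPKM in LPPC/mp 1, 2 and 3 (-2.91 ± 0.58 (SE), adjusted p = 0.049). The alpha globin Hba-a1 was at 360.1 to 740.5 FPKM in LPPC/mp/CD28 and 1404, 2153 and 1566 FPKM in LPPC/mp (-1.73 ± 0.25 (SE), adjusted p = 0.012). Its copy Hba-a2 shares reads with it, so the split between them is uncertain. The mitochondrial mt-Nd1 and mt-Cytb were lower too, with differences of -0.54 ± 0.11 (SE), adjusted p = 0.042, and -0.61 ± 0.12 (SE), adjusted p = 0.039. Of the neutrophil lists 4 of 16 precursor genes and 1 of 16 mature genes were called higher in LPPC/mp/CD28 and 0 lower, while Ngp, Ltf, Lcn2, Mpo and Retnlg did not pass (adjusted p = 0.17, 0.12, 0.25, 0.34 and 0.068 by limma). Among the higher calls were Olfm4 (0.71 ± 0.11 (SE), adjusted p = 0.013), Fcnb (0.63 ± 0.11 (SE), adjusted p = 0.03), Mmp9 (0.59 ± 0.12 (SE), adjusted p = 0.042) and the basophil protease Prss34 (0.60 ± 0.08 (SE), adjusted p = 0.012). The erythroid sum was 1370 to 2647 FPKM in LPPC/mp/CD28 and 4753 to 7084 in LPPC/mp, and the neutrophil precursor sum 794.7 to 1141 FPKM in LPPC/mp/CD28 and 583.6 to 702.3 in LPPC/mp, so the sums moved with these genes; their part was not tested. The count rests on single libraries: without LPPC/mp 1, 2 or 3 it was 31, 2 or 17, and without LPPC/mp/CD28 1, 2, 4 or 5 it was 22, 126, 29 or 25. Since all 14 libraries share 1 estimate of the spread, it was 36 without LPPC/mp/CD152 3 and 34 without LPPC/mp/CD152 4. Of the 15 higher calls 0 were left without LPPC/mp 2 and 0 with all 18 libraries in the fit. The genes that separated the 9 from the 5, Saa3, Il10, Il1rn, Ptgs2, Itga4 and Tlr7, did not pass this test, with differences of 0.07, 0.08, 0.08, 0.04, 0.04 and -0.05.

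Among the 5, Naive 3 stood apart from the 4 LPPC/mp/CD152 libraries, and with 1 Naive library this has no test. Of the 644 genes at least 2-fold higher in the 9, Naive 3 was below all 4 in 420 and at least 2-fold below their mean in 179. For 158 of those 179 (88.3%) all 4 high-Cd3e libraries were above the 4 LPPC/mp/CD152 libraries, and for 246 of the other 465 (52.9%). S100a8 was at 6.32 FPKM in Naive 3 and 32.9 to 70.2 in LPPC/mp/CD152. For Itga4 and Spp1 the 5 lay close together (247 against 215 to 233, and 943 against 831 to 891 FPKM). Without Naive 3, 520 genes were at least 2-fold higher and 518 of the 644 were among them. Of the 284 lower genes 268 were.

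The spread within sets also split the genes. In 204 of the 284 lower genes (71.8%) the SD on the log2 scale was under 0.2 in both sets, as in 76.8% of all genes tested, but in only 188 of the 644 higher genes (29.2%). Among genes with a promoter in the RefSeq table, the NF-kB motif was found in 11.9% of 405 genes at least 2-fold higher without overlap, 12.3% of 204 lower ones and 8.6% of 8503 tested genes. The AP-1 motif was found in 8.6%, 3.4% and 4.1%, and the ISRE motif in 6.2%, 2.0% and 2.8%. A match is only a description of these letters.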

How the data were processed

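Splenocyte RNA was sequenced on a NovaSeq instrument. The values deposited by the authors are FPKM per gene and library, derived from read counts, with a coverage signal and a TPM column, treated here as a score since its rows together exceed the total that TPM allows. The submitters' processing notes name mm10 and GATK 4.2; no source used here gives the aligner or the quantifier. Of 47729 reference genes, the 11068 protein-coding ones (GENCODE M21) whose mean over the 14 libraries reached 0.5 FPKM were tested with limma 3.58.1 in R 4.3.3 (lmFit, eBayes with trend) on log2(FPKM + 0.5), with Benjamini-Hochberg adjustment over all of them and a threshold of 0.05; a 2-fold call also needs a log2 difference of 1. A fold on this scale understates the change of low genes. No counts are given, so no counting interval was computed. Groups came from the labels.

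The 5 libraries, the members and all gene lists were chosen with earlier results of these data known. Named are the 10 largest rises and falls among 2-fold calls without overlap at a mean of 5 FPKM or more, list members by smallest adjusted p or highest level, the 4 markers, and Cd3e, Xist and Y-linked genes. The Klf2, Apoe and Gm10260 values, and the high-Cd3e values of Retnlg, were chosen after their values were seen. No 2 libraries of a set held the same values: at most 0.126% of tested genes had equal FPKM in a pair. Same-numbered libraries deviated together no more than others (9 pairs, r from -0.246 to 0.239, against 45 pairs, -0.28 to 0.269). No pairing by number was thus seen, though so few pairs cannot exclude it. Simulated data with 200 changed genes were used to test the fit. Alternatives were other pseudocounts, filters, scalings, spreads, a replicate block, all 18 libraries, labels alone and leaving out each library. Promoters were from RefSeq, with 1 per gene. Python 3.11.15 was used. Some members of the lists are counted but not reported by name here.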

Additional observations from a re-analysis of the deposited data

Results flagged for a closer look

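For 24 genes the values of the 9 and of the 5 libraries were checked for a library far from the others, 48 sets in all, of which chance flags about 1 in 20; 3 were found. Urah was at 0.0175 FPKM in LPPC/mp/CD152 6 and at 0 in the other 4 of the 5 libraries. Itga4 was at 28.3 FPKM in LPPC/mp/CD28 4, above the other 8 libraries of the 9. Tlr7 was at 5.97 FPKM in LPPC/mp/CD28 5, below the other 8.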

How the results depend on the processing

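Counts of the 9 against the 5 libraries moved by less than 1.5 times under all settings but 2: 445 genes were 2-fold lower with a pseudocount of 0.1, and 5206 genes were called with labels alone. With that pseudocount both comparisons with low-Cd3e LPPC/mp/CD152 gave 448 lower genes. Labels alone gave 173 lower genes for LPPC/mp/CD28 and 346 higher and 130 lower for LPPC/mp, and all reference genes gave 747 higher for LPPC/mp/CD28. Leaving out each library gave 8174 to 8426 calls, 520 to 737 higher and 277 to 298 lower genes. The 58 genes of LPPC/mp/CD28 against LPPC/mp became 31 (pseudocount 0.1), 316 (no filter), 94 (quantile normalization), 6 (all 18 libraries in the fit), 97 (sample weights) and 38 (no trend), and 2 to 126 when each library was left out. The replicate block gave 13 of these and 7934 calls for the 9 against the 5; numbers do not pair the samples. With labels alone, the log2 difference changed sign for Lyz1 (1.96), Slco4a1 (1.22), Lyz2 (0.55), Cd14 (2.06), Spred1 (0.62), Trem2 (2.59), Lipa (0.26), Pkm (1.46), Hspd1 (0.15), Hba-a1 (-0.23), Hbb-bs (-0.55) and S100a4 (0.76). The cause of these moves was not tested. Aligned sequence was 5.21 to 7.92 gigabases per library, and genes under a mean of 0.5 FPKM were not tested.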
